A study of Mus musculus with 34 samples.

Results

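The regions described here are the PDX1 binding peaks of Bmal1-/- Beta-TC6 cells, which are mouse β cells of a line that makes insulin and in these samples lack the core clock activator BMAL1. They were taken from the authors' peak lists of cells without IL-1β (control, 8339 peaks) and of cells given the inflammatory cytokine IL-1β (8095 peaks), together 16434 of the 174035 peaks in the series' 10 lists. A peak overlapping a peak of the other list by at least 1 bp was counted as found in both conditions, which gave 4906 shared peaks, 3433 control-only peaks and 3189 IL-1β-only peaks. Genes were assigned as the nearest protein-coding gene body within 50 kb of a peak, in mm10 coordinates.

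The peaks come from chromatin immunoprecipitation with sequencing (ChIP-seq), in which DNA bound by a protein is pulled down with an antibody and counted. Each group held 3 immunoprecipitated samples and had a matching input, which is sheared chromatin without the pull-down. All groups had been synchronised by a 10 µM forskolin pulse of 1 h, while the labels give no dose or time for IL-1β. The wild-type lists used below come from the same cell line with the genotype WT, without and with IL-1β. The labels do not say whether the Bmal1-/- line is 1 clone or whether its samples are from separate cultures.

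Each group has 1 deposited list and no value per replicate, so replicate spread is unknown for everything below, and no p-value is given. Intervals in brackets are 95% intervals (Wilson for a share, Newcombe for a difference of shares) and cover counting error over peaks only. ChIP tags carry no expression values, so the loss of Bmal1 and the identity of the cells could not be checked. For the IL-1β groups of both genotypes the sample titles name PDX1 but the antibody label names p65. The titles were followed, and values that bear on this label stand beside the p65 results.

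PDX1 is a homeodomain transcription factor that directs pancreas formation and, in mature β cells, keeps insulin, glucose transport and granule genes active. Its DNA-binding domain recognises sites built around a TAAT core, often together with other homeodomain partners. IL-1β signals through its receptor and the IκB kinases to release NF-κB, whose p65 (RELA) subunit carries the main activation domain and binds enhancers of inflammatory genes.

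Of the genes in the lists examined below, 5 had a PDX1 peak over the RefSeq promoter window (250 bases before to 50 after the start) in both conditions. Their 250 upstream bases are shown because they let a reader see the TAAT cores in promoters where the peak was called with and without IL-1β. The sequences are from RefSeq on GRCm38.p6, plus strand, 5′ to 3′, with every TAAT or ATTA (the same core on the other strand) in capitals.
Ins1, chr19:52264047-52264296: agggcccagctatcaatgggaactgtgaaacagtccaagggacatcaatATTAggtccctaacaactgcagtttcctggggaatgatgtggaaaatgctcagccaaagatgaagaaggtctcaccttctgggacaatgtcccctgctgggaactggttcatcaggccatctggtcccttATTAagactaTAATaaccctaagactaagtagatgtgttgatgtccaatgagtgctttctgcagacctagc
Iapp, chr6:142298175-142298424: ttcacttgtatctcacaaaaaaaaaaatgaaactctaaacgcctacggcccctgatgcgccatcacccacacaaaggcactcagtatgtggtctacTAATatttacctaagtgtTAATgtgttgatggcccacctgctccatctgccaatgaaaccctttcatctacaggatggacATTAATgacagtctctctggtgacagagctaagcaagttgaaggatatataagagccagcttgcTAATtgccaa
G6pc2, chr2:69219699-69219948: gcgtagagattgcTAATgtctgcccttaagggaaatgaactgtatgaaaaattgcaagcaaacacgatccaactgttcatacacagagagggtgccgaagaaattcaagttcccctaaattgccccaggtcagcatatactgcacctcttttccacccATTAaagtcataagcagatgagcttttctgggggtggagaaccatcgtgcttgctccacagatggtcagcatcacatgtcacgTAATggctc
Rfx6, chr10:51685268-51685517: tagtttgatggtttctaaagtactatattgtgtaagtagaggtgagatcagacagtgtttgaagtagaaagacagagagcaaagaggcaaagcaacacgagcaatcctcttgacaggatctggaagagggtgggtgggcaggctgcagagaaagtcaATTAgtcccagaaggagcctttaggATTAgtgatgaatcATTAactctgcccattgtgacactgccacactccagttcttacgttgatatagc
Myt1, chr2:181766779-181767028: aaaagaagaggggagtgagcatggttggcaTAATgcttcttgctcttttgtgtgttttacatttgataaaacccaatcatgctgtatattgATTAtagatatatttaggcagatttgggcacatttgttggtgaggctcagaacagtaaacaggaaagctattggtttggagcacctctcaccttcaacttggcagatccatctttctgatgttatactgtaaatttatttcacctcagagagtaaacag

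Ins1 encodes an insulin, Iapp the co-secreted peptide amylin, and G6pc2 the islet glucose-6-phosphatase. Rfx6 and Myt1 encode transcription factors of the endocrine pancreas. The core occurs 5 times in the Iapp stretch, 3 times in each of Ins1, G6pc2 and Rfx6, and 2 times in Myt1. Among all promoters, 33 windows of 30 genes had a PDX1 peak of both lists, and 30 of these (90.9%, 76.4 to 96.9%) held TAAT or ATTA in the upstream bases. Of 36 windows with a control peak only, 23 (63.9%, 47.6 to 77.5%) held it, as did 37 of 58 windows with an IL-1β peak only (63.8%, 50.9 to 74.95%) and 49.4% of all 21263 promoters. The longer palindrome TAATTA, each occurrence of which also holds TAAT and ATTA, was in 15.2% of the windows with both, 11.1% with control only and 19.0% with IL-1β only, against 4.31% of all promoters. These are counts of letters in a window and not of bound sites.

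Most peaks lay away from promoters. Of control peaks, 60 of 4906 shared ones (1.22%) and 64 of 3433 control-only ones (1.86%) had their centre within 1 kb of an annotated start, and of the IL-1β-only peaks 76 of 3189 did (2.38%). A gene body held 48.4% of shared, 48.4% of control-only and 49.6% of IL-1β-only peaks.

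The lists were similar in depth, with 61.37 M tags for control and 63.90 M with IL-1β, of which 1.64% and 1.29% fell in peaks. Input removed 80.5% and 78.1% of putative peaks. HOMER's tag thresholds were 34 and 32, and its peak windows 472 and 418 bp. A wider window collects more tags, so the normalised tag counts (tags per 10 M) of the lists are set side by side below, and the windows have to be read with them.

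Strong PDX1 sites were found in both conditions and the weakest mostly in a single one. Overall 58.8% of control peaks (57.8 to 59.9%) were found with IL-1β, and 60.6% of IL-1β peaks (59.5 to 61.7%) in control. Each list was cut into 4 equal bins by tag count. From the highest to the lowest bin of control peaks the share was 90.8%, 67.2%, 47.9% and 29.4%. For IL-1β peaks the bins gave 89.9%, 69.0%, 51.1% and 32.4%. Each bin lay apart from the next beyond counting error in both lists, as the plot of shared peaks by bin shows. The bins rank peaks by tag count, on which HOMER's thresholds also act, and the part of the thresholds in these shares was not tested. In bulk chromatin, binding in fewer cells and weaker binding per cell cannot be told apart.

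**Figure D1:**
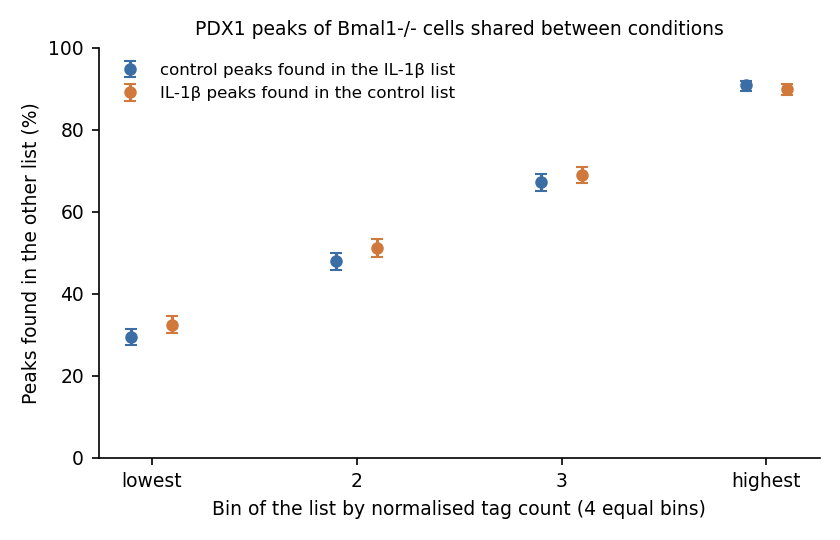
Share of Bmal1-/- PDX1 peaks found in the other condition's list (y axis, percent) by bin of the list's own normalised tag count (x axis). Points are shares and bars are Wilson 95% intervals. The share rises from 29.4% to 90.8% for control peaks and from 32.4% to 89.9% for IL-1β peaks.

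At the top of the lists hardly any peak was listed in a single condition. Among the strongest 5% of peaks, 411 of 417 control peaks and 396 of 405 IL-1β peaks were shared, and among the strongest 100 the counts were 99 and 100. The strongest control-only peak ranked 62nd, 2020 bp from Elobl. The strongest IL-1β-only peak ranked 230th, and its nearest gene was Oxgr1.

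Peaks of 1 condition had lower median tag counts and folds over input, as deposited by the authors, than shared ones. The limits that decide whether a peak is listed act on these same measures. The part of the limits in these differences was not tested. Control-only peaks had a median of 12.4 tags and 5.55-fold enrichment over input, against 21.0 tags and 6.88-fold for shared peaks in the same list. IL-1β-only peaks had 10.3 tags and 5.91-fold, against 16.6 and 6.99-fold. The authors' limit was 4-fold. Under 5-fold lay 35.3% of control-only and 30.4% of IL-1β-only peaks, against 20.3% and 19.5% of shared peaks. Few were near misses in position, since only 19 control-only and 20 IL-1β-only peaks had a peak of the other list within 500 bp, and their median distances to one were 77.3 kb and 71.2 kb.

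The 10 strongest shared peaks with a gene within 50 kb, by control tag count and 1 per gene, included one inside Slc30a8, which encodes the zinc transporter ZnT8 of insulin granules (chromosome 15, 52316126 to 52316598, 127.3 tags in control and 106.7 with IL-1β). The highest of the 10 lay in Ube3c, a ubiquitin ligase gene (chromosome 5, 29620529 to 29621001), with 174.2 and 137.2 tags. The others, in descending order, lay at Gm3415, Oxr1, Fkbp9, Ift81, Myo18b, Prune2, Unc5c and Prkg1, from 139.8 down to 87.2 control tags. Of the 10, 0 had the higher tag count with IL-1β, beside 5.23% of all shared peaks in the highest bin. All 10 were in both wild-type lists, as were 93.4% of all shared peaks. A p65 peak of IL-1β-treated Bmal1-/- cells overlapped 9 of them, beside 60.3% of shared peaks in the highest bin.

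Across the 4906 shared peaks the tag counts of the lists went together, with Pearson's r of 0.90 on log2 values and Spearman's rho of 0.89. This is across peaks, which share libraries and are not independent replicates. The median log2 ratio of IL-1β to control tags was -0.35 (quartiles -0.55 and -0.13), and 717 peaks (14.6%) had the higher value with IL-1β. The narrower IL-1β window moves with this shift, and its part was not tested, so the ratios are read against this median and not against 0.

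Shared peaks at the strongest p65 sites departed from it. At shared peaks without a p65 peak the median log2 ratio was -0.38 (n = 2615), and 12.2% were higher with IL-1β. From the lowest to the highest bin of p65 tag count it was -0.40, -0.40, -0.34 and -0.15. At the 102 shared peaks on a p65 peak of the strongest 5% it was 0.25, and 69 of them (67.6%) were higher with IL-1β. In the scatter of shared tag counts these sit above the main cloud.

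**Figure D2:**
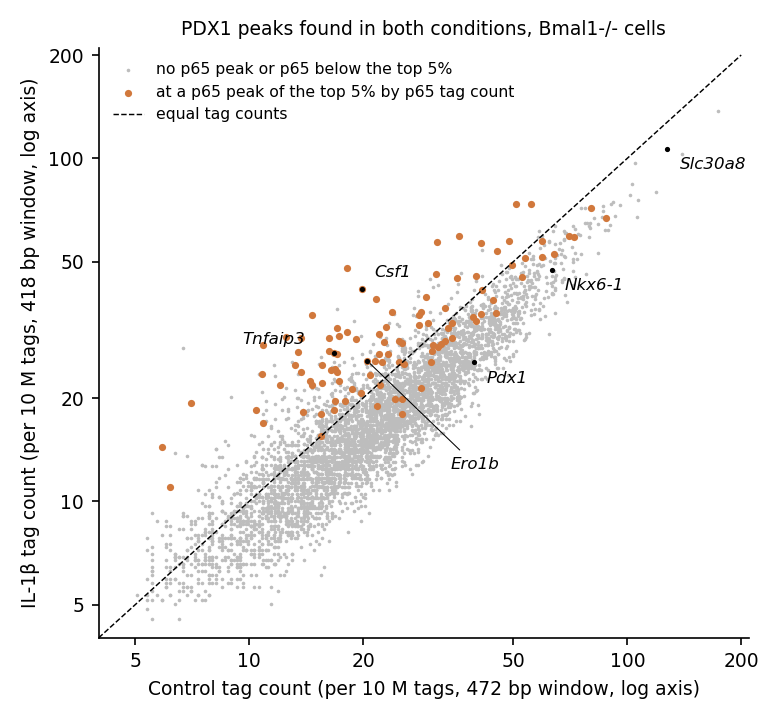
Tag counts of the 4906 shared PDX1 peaks in control (x axis) and with IL-1β (y axis), in tags per 10 M on log axes. Orange points are the 102 peaks at a p65 peak of the strongest 5%, 69 of which lie above the dashed line of equal counts, black dots mark 6 genes given in the text, and Csf1 stands at 19.9 and 41.5 tags.

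Of the genes in the pathway and β-cell lists described below, 5 had a shared peak at such a p65 site, 3 of them higher with IL-1β and 2 not. One lay 8045 bp from Csf1, the gene of the macrophage growth factor M-CSF (chromosome 3, 107768514 to 107768986). It had 19.9 tags in control and 41.5 with IL-1β, where the p65 peak had 60.6 tags. A peak 19202 bp from Tnfaip3, which encodes the NF-κB inhibitor A20 (chromosome 10, 19034612 to 19035084), had 16.8 and 27.1 tags with a p65 peak of 59.1. One beside Ero1b, an oxidase of proinsulin folding (chromosome 13, 12559730 to 12560202), had 20.5 and 25.7 with a p65 peak of 90.9. The peaks at Cacna1a, a calcium channel gene (49.4 and 48.7 tags, p65 peak of 56.8), and Scg2, a granule protein gene (34.4 and 29.9, p65 peak of 58.1), were not higher with IL-1β. In the wild-type lists, with windows of 207 and 226 bp, all 5 had the higher PDX1 tag count with IL-1β. So did 80.7% of all shared peaks at p65 that were in both wild-type lists. The values were 40.9 and 89.4 for Csf1, 16.8 and 44.4 for Tnfaip3, 33.9 and 50.4 for Ero1b, 88.1 and 132.8 for Cacna1a, and 47.0 and 58.5 for Scg2.

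Peaks listed in a single condition differed in their overlap with p65. Of IL-1β-only PDX1 peaks, 1261 of 3189 (39.5%) overlapped a p65 peak of IL-1β-treated Bmal1-/- cells, and of control-only peaks 353 of 3433 (10.3%, 9.31 to 11.3%). The difference was 29.3 percentage points (27.3 to 31.2). Over all peaks 31.7% of the control list and 43.8% of the IL-1β list lay at a p65 peak.

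The gap was widest among strong peaks. From strong to weak bins, 77.6%, 59.8%, 42.5% and 22.4% of IL-1β-only peaks lay at p65, and 17.3%, 14.6%, 10.7% and 7.07% of control-only peaks. The differences were 60.3 points (51.7 to 67.3), 45.2 (40.4 to 49.7), 31.8 (28.2 to 35.4) and 15.3 (12.8 to 17.9). The windows were 472 bp for control and 418 bp with IL-1β, and their part in the difference was not tested.

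**Figure D3:**
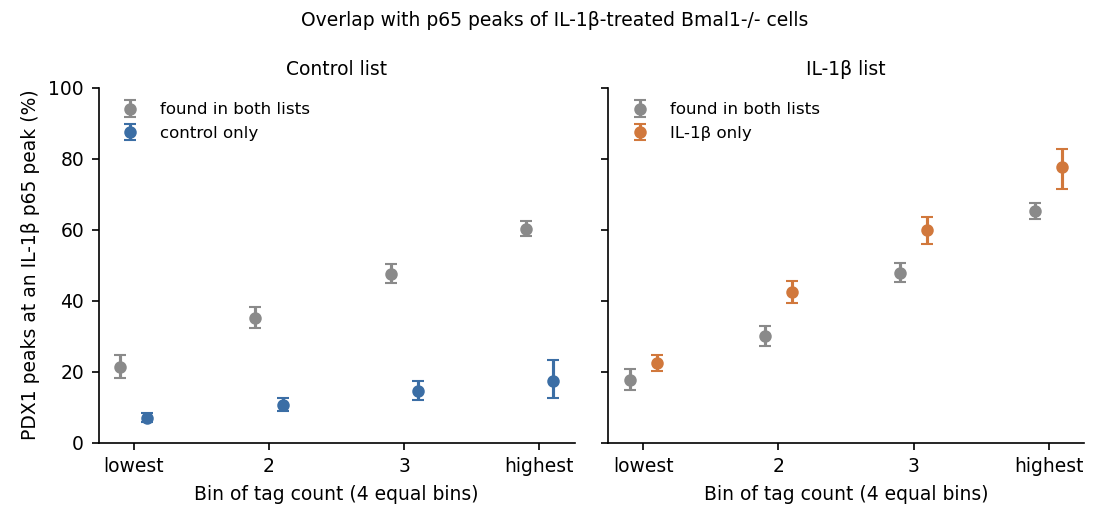
Share of PDX1 peaks overlapping a p65 peak of IL-1β-treated Bmal1-/- cells (y axis, percent) by bin of tag count (x axis), for the control list (left) and the IL-1β list (right). Bars are Wilson 95% intervals. In the highest bin 77.6% of IL-1β-only and 17.3% of control-only peaks lay at p65, with shared peaks at 65.3% and 60.3%.

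Shared peaks lay between them within every bin, and above both when the bins were pooled. In all, 46.6% of shared peaks of the IL-1β list overlapped p65, and the difference of IL-1β-only minus shared peaks was -7.01 points (-9.20 to -4.81). Within bins the order turned, and IL-1β-only peaks exceeded shared peaks by 12.3 points (5.70 to 17.9), 11.9 (7.23 to 16.5), 12.5 (8.27 to 16.6) and 4.70 (0.94 to 8.26) from the highest to the lowest. Control-only peaks were below shared peaks of the same list in every bin, by 43.0 points in the highest and 14.3 in the lowest. Without IL-1β the Bmal1-/- cells had 173 p65 peaks, at which 6 control-only, 13 IL-1β-only and 29 shared PDX1 peaks lay.

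Read from the p65 side, 16.4% of the 16162 p65 peaks had a control PDX1 peak and 21.9% an IL-1β PDX1 peak. For the strongest 5% of p65 peaks the shares were 13.5% and 34.3%, and for the strongest 100 they were 14 and 41 peaks. For the lowest bin they were 12.3% and 15.5%. The strongest p65 sites were thus seldom PDX1 peaks without IL-1β and more often with it.

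Because the antibody label of the IL-1β PDX1 samples names p65, the strongest p65 peaks were looked up 1 by 1. Of the 12 strongest, 8 had no IL-1β PDX1 peak, among them those inside Tnfaip3 (265.0 p65 tags), Nfkbia (197.4) and Nfkb2 (162.4) and the one 268 bp from Junb (182.5). The other 4, nearest to Tnf (205.0), Ripk2 (189.2), Dip2b (174.8) and Ccdc18 (167.5), had IL-1β PDX1 peaks of 17.1, 26.3, 24.9 and 48.0 tags. At shared peaks on a p65 peak, Spearman's rho of PDX1 with p65 tags was 0.61 in the IL-1β list and 0.38 in the control list. It was 0.47 for IL-1β-only and 0.33 for control-only peaks at p65. The p65 and PDX1 lists with IL-1β also share their input. The part of the antibody or the shared input in the p65 overlap was not tested.

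The 10 strongest IL-1β-only peaks with a gene within 50 kb, taken 1 per gene, from 37.4 to 32.5 tags, were at Rhbdl2, Fbxl17, Klhl7, Mob3b, 4930544G11Rik, Nampt, Tnfrsf17, Rere, Negr1 and Smyd3. All 10 overlapped a p65 peak, with 24.5 to 131.9 p65 tags, beside 77.6% of IL-1β-only peaks in the highest bin. All 10 were in the wild-type IL-1β list and 8 in the wild-type control list. At these 8 the wild-type tag count was higher with IL-1β, beside 90.4% of IL-1β-only peaks at p65 found in both wild-type lists.

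Nampt encodes the rate-limiting enzyme of NAD salvage. Its IL-1β-only peak (chromosome 12, 32774734 to 32775152, 45183 bp from the gene) had 34.3 tags, a wild-type IL-1β value of 48.3 and no wild-type control peak. Mob3b, which encodes a kinase activator, had 35.4 tags in its intragenic peak, and in wild-type cells 6.65 tags in control and 45.5 with IL-1β. Rere encodes a transcriptional corepressor, and its peak had 33.6 tags, with 22.4 and 57.0 in wild-type cells. A control-only Rere peak of 30.3 tags lay 450 bp away (chromosome 4, 150352694 to 150353166).

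The 10 strongest control-only peaks with a gene within 50 kb, taken 1 per gene, were at Elobl, Ins2, Atg4c, Lrp12, Papss2, Th, Acyp2, Olig3, Vav3 and Scg2, from 67.6 to 36.0 tags. Of these, 1, at Acyp2, overlapped a p65 peak, beside 17.3% of control-only peaks in the highest bin. All 10 were in both wild-type lists, and 4 had the higher wild-type value with IL-1β. Of all control-only peaks in both wild-type lists, 60.4% had the higher value with IL-1β. The Elobl peak had 38 input tags and the Ins2 peak 40, beside a median of 14 for control-only and for shared control peaks in the highest bin, and their folds were 5.72 and 4.85.

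Most peaks of a single knockout condition were in the wild-type lists, which were longer (40028 peaks in control and 38930 with IL-1β) and had lower tag thresholds (20 and 22, against 34 and 32 in the knockout lists). Of control-only peaks 84.9% were in the wild-type control list and 82.5% in the wild-type IL-1β list, and of IL-1β-only peaks 74.98% and 80.8%, against 96.2% and 96.0% of shared peaks in the control list. Over all peaks, 91.6% of the knockout control list were in the wild-type control list and 89.9% of the knockout IL-1β list in the wild-type IL-1β list. IL-1β-only peaks were less often in the wild-type control list than control-only peaks, with a difference of -9.91 points (-11.8 to -7.98). In the wild-type IL-1β list the difference was -1.81 points (-3.68 to 0.06), an interval that includes 0.

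Taking both wild-type lists at once, 65.3% of IL-1β-only peaks were in both, 15.4% in the wild-type IL-1β list only, 9.66% in the wild-type control list only and 9.60% in neither. For control-only peaks the shares were 74.0%, 8.51%, 10.8% and 6.61%. The IL-1β-only peaks at p65 stood out, with 22.1% (19.9 to 24.5%) in the wild-type IL-1β list only, against 11.1% (9.72 to 12.5%) of those away from p65. The bars of wild-type presence show this as the widest band of that kind.

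**Figure D4:**
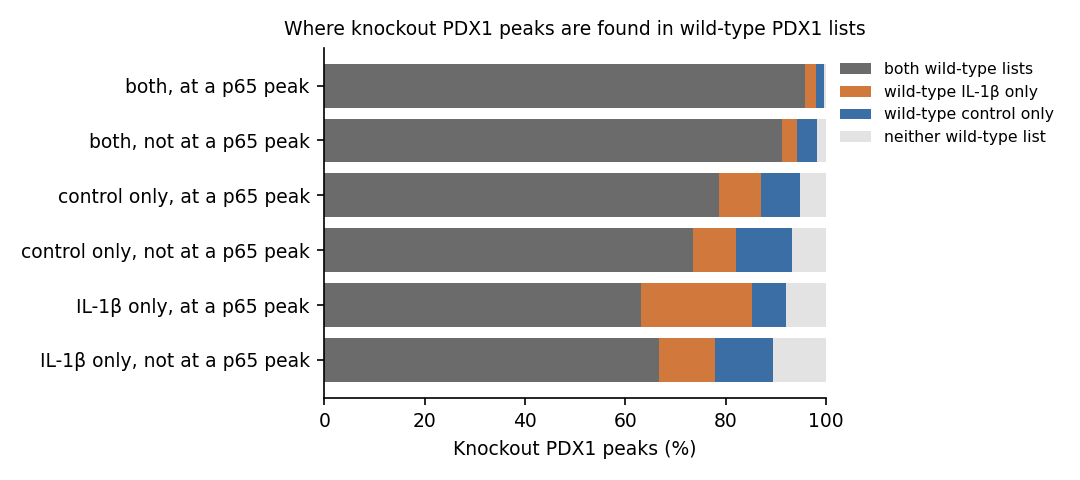
Share of Bmal1-/- PDX1 peaks (x axis, percent) found in both wild-type PDX1 lists, only the one with IL-1β, only the control one, or neither, for shared, control-only and IL-1β-only peaks at and away from p65. IL-1β-only peaks at p65 have 22.1% in the wild-type IL-1β list only, and those away from p65 11.1%.

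Tag counts in wild-type cells were compared at the same sites. Where an IL-1β-only peak at p65 was in both wild-type lists (n = 795), the wild-type IL-1β value was the higher in 90.4%, with a median log2 ratio of 0.43. For IL-1β-only peaks away from p65 it was higher in 62.7% (n = 1288, median 0.11). Control-only peaks were higher with IL-1β in 75.9% at p65 (n = 278, median 0.20) and in 58.5% away from it (n = 2264, median 0.06). Shared peaks at p65 were higher in 80.7% and those away from it in 59.3%. The wild-type windows of 207 and 226 bp differ in the direction of these ratios, and their part was not tested.

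Of 21887 protein-coding genes, 2568 (11.7%) had a PDX1 peak in both conditions, 995 (4.55%) in control only and 928 (4.24%) with IL-1β only. A control peak was near 16.3% of genes and an IL-1β peak near 16.0%. Genes of a single condition rested on a single peak in 90.8% of control-only and 90.7% of IL-1β-only cases, and 222 of the genes in both shared no peak. A PDX1 peak at p65 was present for 388 of the 928 IL-1β-only genes (41.8%) and 125 of the 995 control-only genes (12.6%).

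The 16 gene lists, with 302 genes, were read against these shares, and the bars of gene lists give their composition. PDX1 peaks in both conditions were near 52.2% of β-cell transcription factor genes, 55.6% of insulin and granule genes and 52.6% of both the glucose sensing and the exocytosis genes, against 11.7% of all genes. The share was 28.6% for NF-κB family and feedback genes, 5% for cytokines and for other lineages, and 0 for other inflammatory effectors. The lists were chosen with earlier results known, and their counts are descriptions without a test.

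**Figure D5:**
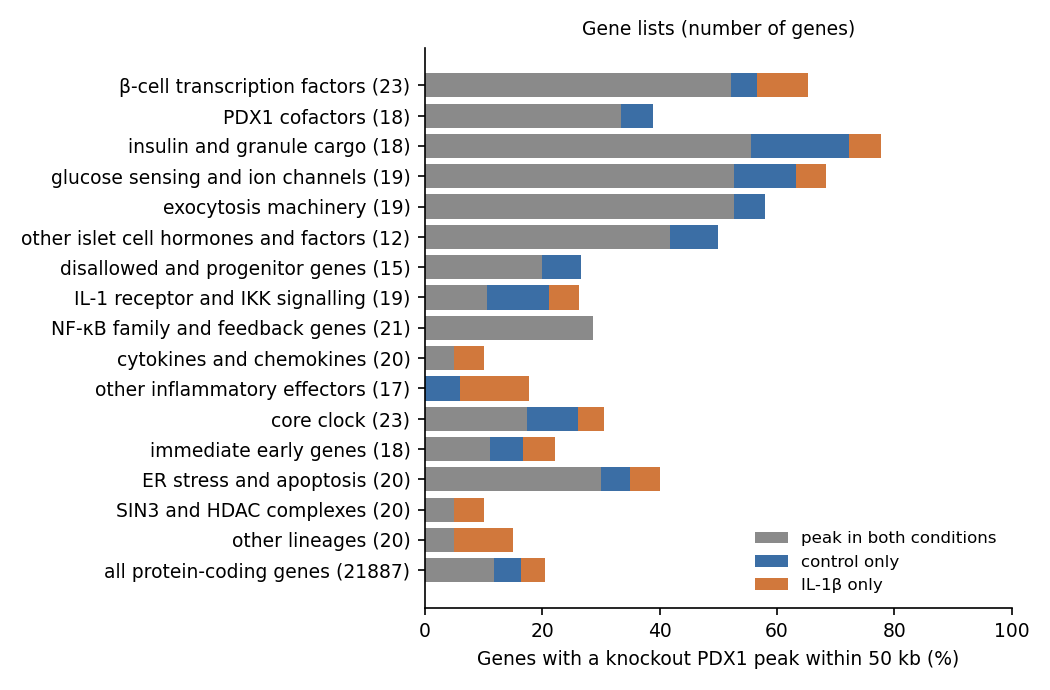
Share of genes in each list (x axis, percent) with a Bmal1-/- PDX1 peak within 50 kb in both conditions, in control only and with IL-1β only, with all 21887 protein-coding genes as the last bar. The β-cell factor, insulin, glucose sensing and exocytosis lists have 52.2 to 55.6% in both conditions, against 11.7% of all genes.

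Of 23 β-cell transcription factor genes, 12 had peaks in both conditions, 1 in control only and 2 with IL-1β only. The single-condition counts are 4.35% and 8.70%, beside 4.55% and 4.24% of all genes. The strongest shared peak was higher with IL-1β in 0 of the 12, beside 14.6% of all shared peaks. By bin of control tag count that share was 5.23% in the highest and 38.8% in the lowest. The part of picking the strongest peak in the 0 of 12 was not tested. The peak 5558 bp from Pdx1 itself (chromosome 5, 147264067 to 147264539) had 39.3 tags in control and 25.5 with IL-1β. Nkx6-1, which keeps β cells from other endocrine fates, had 63.2 and 47.4 (chromosome 5, 101645173 to 101645645). Rfx3, a factor for islet cell ciliogenesis, had 62.1 and 57.1, and Mlxipl, the glucose-responsive factor ChREBP, 42.7 and 31.8. No peak of either list was assigned to 8 of the genes, among them Neurod1 and Mafa.

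Some factor genes had peaks in a single condition. Pax4, a repressor for β-cell fate, had a control-only peak of 29.7 tags (chromosome 6, 28450963 to 28451435) that was in both wild-type lists. Isl1, a LIM homeodomain factor, had an IL-1β-only peak of 11.3 tags 38524 bp away, which did not lie at a p65 peak. Its wild-type values were 30.1 in control and 27.7 with IL-1β.

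Genes with shared peaks also had sites of a single condition. Of 19 control peaks at the 23 factor genes 3 were control only, beside 3433 of 8339 over all genes and sites. At p65 lay 0 of the 3 (10.3% of all control-only peaks). Of 26 IL-1β peaks 10 were IL-1β only, beside 3189 of 8095. Of these 10 IL-1β-only peaks 6 lay at p65 (39.5% of all IL-1β-only peaks). One lay 22516 bp from Pdx1 (chromosome 5, 147247163 to 147247581) with 11.6 tags and a p65 peak of 47.7, and was in the wild-type IL-1β list (25.7 tags) but not the wild-type control list. One inside Mnx1, a homeobox factor that holds β-cell fate (chromosome 5, 29475600 to 29476018), had 23.2 tags and a p65 peak of 21.0, again with a wild-type peak only with IL-1β (22.3). St18, which encodes a zinc finger factor, had 1 shared peak of 16.9 and 15.0 tags and 3 IL-1β-only peaks of 21.6, 19.6 and 17.8.

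PDX1 cofactor genes gave 6 of 18 in both conditions and 1, Spop, in control only. These are 33.3% and 5.56%, beside 11.7% and 4.55% of all genes. Meis1, which encodes a homeodomain partner of PDX1, had a shared peak of 23.5 and 24.6 tags and an IL-1β-only one of 19.7 tags at a p65 peak of 57.9, where the wild-type values were 3.49 and 19.8. Ssbp3, a partner in LIM complexes, had peaks in both conditions without sharing one.

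Of 18 insulin and granule genes, 10 had peaks in both conditions, 3 in control only (Ins2, Pcsk1 and Scg5) and 1, Nucb2, with IL-1β only. The single-condition counts are 16.7% and 5.56%, beside 4.55% and 4.24% of all genes. Those of the 18 insulin and granule genes rest on few peaks. Of their 27 control peaks 10 were control only, beside 3433 of 8339 over all genes and sites. Of their 21 IL-1β peaks 4 were IL-1β only, beside 3189 of 8095. At a p65 peak lay 1 of the 10 (beside 10.3% of all control-only peaks) and 1 of the 4 (beside 39.5% of all IL-1β-only peaks). Assigning genes up to 100 kb left 1 gene with control peaks only and 0 with IL-1β peaks only.

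Ins1 had shared peaks of 42.4 and 26.6 tags 11411 bp away (chromosome 19, 52252414 to 52252886) and of 38.0 and 22.1 tags over the promoter printed above. At Ins2, the other mouse insulin gene, the only peak was the control-only one (chromosome 7, 142679724 to 142680196, 60.3 tags), with 89.9 and 68.5 tags in the wild-type lists. With IL-1β no peak was listed there. The control fold was 4.85 against the limit of 4, and whether signal under the limits remained with IL-1β was not tested.

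Genes of proinsulin processing were split between the classes. Pcsk1, the first prohormone convertase for proinsulin, had a control-only peak of 22.0 tags (5.05-fold), and Scg5, the chaperone of the second convertase, one of 16.1 (4.72-fold). Pcsk2, that second convertase, had a shared peak of 19.9 and 18.6 tags, and Cpe, the carboxypeptidase that trims insulin, one of 57.7 and 46.8. At Iapp the peak over the printed promoter had 46.4 and 35.8 tags, and at Chga, a granule protein gene, 35.4 and 26.4.

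Glucose sensing and channel genes had peaks in both conditions in 10 of 19, with 2 in control only and 1, Adra2a, with IL-1β only. The single-condition counts are 10.5% and 5.26%, beside 4.55% and 4.24% of all genes. Slc2a2, the GLUT2 transporter gene, kept 3 peaks, the strongest with 48.9 and 31.0 tags. Abcc8, the sulfonylurea receptor of the ATP-sensitive potassium channel, had 43.8 and 34.9 (chromosome 7, 46122827 to 46123299). At G6pc2 only the promoter peak (28.0 and 20 tags) was shared, and the other 3 control peaks, of 24.6, 23.3 and 18.9 tags, were control only.

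The potassium channel gene Kcnh6 had a control-only peak of 18.3 tags. Adra2a, the adrenergic receptor gene that restrains insulin release, had 3 IL-1β-only peaks of 22.5, 14.7 and 12.7 tags. With genes assigned up to 100 kb, 0 glucose sensing and channel genes had IL-1β peaks only. The peaks of 14.7 and 12.7 tags were in both wild-type lists, with 32.1 and 39.3 tags and with 19.3 and 18.1 tags (control and IL-1β). The strongest of the 3 (chromosome 19, 54048130 to 54048548) overlapped a p65 peak of 17.7 tags and was in the wild-type IL-1β list (44.5) but not the control one. In the calcium channel gene Cacna1a an IL-1β-only peak of 13.8 tags lay at a p65 peak of 110.5, again with a wild-type peak only with IL-1β (30.6).

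Exocytosis genes had peaks in both conditions in 10 of 19, and 1, Vamp8, in control only (5.26%, beside 4.55% of all genes). The strongest shared peak lay at Sytl4, a granule docking protein gene, with 33.6 and 29.4 tags. Among other islet hormones and factors, 5 of 12 had peaks in both (41.7%, beside 11.7% of all genes). Their strongest shared peak lay 46459 bp from Sst, the somatostatin gene (67.0 and 44.3 tags). With genes assigned within 10 kb, 1 of 12 had peaks in both. Of 15 genes that β cells normally keep silent or that mark progenitors, 3 had peaks in both (20%, beside 11.7% of all genes). Their strongest shared peak lay in Hk1, a hexokinase gene, with 62.1 and 57.3 tags.

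Of 19 IL-1 receptor and IκB kinase pathway genes, 2 had peaks in both conditions (10.5%, beside 11.7% of all genes). Another 2 had them in control only and 1 with IL-1β only (10.5% and 5.26%, beside 4.55% and 4.24%). Il1r1, which encodes the IL-1 receptor itself, had a shared peak of 34.1 and 29.1 tags at a p65 peak of 30.0 (chromosome 1, 40236709 to 40237181). Irak3, an inhibitor of the pathway, shared no peak but had an IL-1β-only one of 24.4 tags at a p65 peak of 37.2, with wild-type values of 12.3 and 45.0.

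NF-κB family and feedback genes had peaks in both conditions in 6 of 21 (28.6%, beside 11.7% of all genes). Peaks of a single condition only were at 0 of the 21, beside 4.55% (control) and 4.24% (IL-1β) of all genes. In 3 of the 5 with a shared peak, the strongest one had the higher tag count with IL-1β. Of all shared peaks 14.6% did, with 5.23 to 38.8% by bin of control tag count. The 3 were Tnfaip3 (given above), Nfkbiz (28.8 and 30.8) and Cyld (23.8 and 24.9). These genes encode inhibitors or cofactors of NF-κB. Nfkb1, which encodes the p105 precursor, had 34.1 and 20.2 tags away from any p65 peak.

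Nfkbia, which encodes IκBα, had a control-only peak of 19.6 tags (chromosome 12, 55517984 to 55518456) and an IL-1β-only one of 14.7 (55518463 to 55518881), adjoining but without the 1 bp of overlap. By the rule it shares no peak. Inside Nfkbiz an IL-1β-only peak of 12 tags lay at a p65 peak of 128.9 and was in neither wild-type list.

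Of 20 cytokine and chemokine genes, Csf1 had the shared peak given above and Tnf an IL-1β-only one. The Tnf peak (chromosome 17, 35199007 to 35199425) had 17.1 tags at 4.53-fold over input, lay on the p65 peak of 205.0 tags, and was in neither wild-type PDX1 list. Of 17 other effector genes, 2 had peaks with IL-1β only and 1 in control only. These are 11.8% and 5.88%, beside 4.24% and 4.55% of all genes. Irf1, an interferon response factor gene, had an IL-1β-only peak of 11.6 tags at p65, and Txnip, a thioredoxin inhibitor gene, a control-only peak of 18.1 tags.

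Core clock genes had peaks in both conditions in 4 of 23, in control only in 2 (Cry2 and Hlf) and with IL-1β only in 1 (Per3, 13.1 tags). These are 17.4%, 8.70% and 4.35%, beside 11.7%, 4.55% and 4.24% of all genes. Arntl, the gene that encodes BMAL1, had a shared intragenic peak of 20.9 and 14.6 tags (chromosome 7, 113226970 to 113227442), and Clock, its partner, one of 21.0 and 16.7. Rora, a nuclear receptor of the clock's second loop, had several shared peaks, the strongest of 20.5 and 18.3 tags.

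Of 18 immediate early genes, 2 had peaks in both conditions (11.1%, beside 11.7% of all genes). Jun had an IL-1β-only peak 25116 bp away (chromosome 4, 95023502 to 95023920) with 30.5 tags at a p65 peak of 59.8, and wild-type values of 21.4 and 44.2. Myc had a control-only one of 14.8 tags. Stress and apoptosis genes had peaks in both in 6 of 20 (30%, beside 11.7% of all genes). Their strongest shared peak lay in the unfolded protein sensor gene Atf6, with 57.8 and 46.5 tags. Wfs1, the wolframin gene, had a control-only peak of 29.3 tags, and Bbc3, which encodes the death effector PUMA, an IL-1β-only one of 11.1.

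SIN3 and HDAC complex genes had 1 of 20 in both conditions (Arid4b, 32.1 and 23.9 tags) and 1, Rbbp7, with IL-1β only. Each is 5%, beside 11.7% and 4.24% of all genes. Of 20 genes of other lineages, Cftr had a shared peak of 23.1 and 16.4 tags. Pecam1, an endothelial adhesion gene, had an IL-1β-only peak of 30.4 tags at a p65 peak of 133.5, with wild-type values of 30.1 and 76.1, and Alb, the albumin gene, one of 10.2 tags. A peak beside a gene gives its position and not its expression.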

How the data were processed

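The samples were grouped by title. The authors' peak lists, 1 per group, were called with HOMER findPeaks from 1 immunoprecipitated and 1 input tag collection, per the file headers, which do not say how the 3 samples of a group were combined. Alignment and peak tools named in the submitters' processing notes are Bowtie2 and HOMER, without versions, and the build is mm10. Per the file headers, HOMER kept peaks at a false discovery rate of 0.001 that exceeded input by 4-fold or more, with a p-value limit of 0.0001, and the surrounding 10 kb by 4-fold or more. The signal, per the file headers, is the authors' tag count per 10 M sequenced tags. The score is the authors' position-adjusted count, as deposited, and the fold is the authors' ratio of pulled-down to depth-scaled input tags, as deposited. All describe or rank peaks within a list. With 61.37 and 63.90 M tags in 1 list per condition, the precision between samples is unknown.

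Here peaks were overlapped (at least 1 bp), cut into 4 equal bins of tag count and assigned to genes of RefSeq GRCm38.p6, the assembly of mm10, with Python 3.11.15, numpy 2.4.6 and pandas 2.3.3. Where several gene bodies were equally near (47 control and 40 IL-1β peaks), the one whose end was nearest to the peak centre was taken. Overlap and assignment were tested on simulated data. No test between conditions was made, because the lists hold no value per replicate. Of 303 listed genes 302 were matched, Bmal1 being listed as Arntl. The named genes are those of the 10 strongest shared, control-only and IL-1β-only peaks with a gene, and members of the 16 lists. The peaks and lists were chosen with earlier results of these data known. The alternatives were other overlap rules, thresholds, list lengths and gene distances, and, chosen after seeing the data, windows of 200 bp and every equally near gene. Peak sequences were not analysed here, since no genome was used. Results for some members of the gene lists are not reported here.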

Additional observations from a re-analysis of the deposited data

How the results depend on the processing

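Of 74 alternative values of the main shares and gene counts, 38 stayed within the main interval or within 1.5 times the main count, and 36 did not. Shares over the whole lists (58.8% of control and 60.6% of IL-1β peaks) became 57.31% and 59.04% with a reciprocal overlap of 50%, 48.79% and 50.27% with centres within 100 bp, 37.02% and 33.99% at 8-fold over input in both lists, 72.02% in both directions among the 4000 strongest peaks, and 57.08% and 58.80% in windows of 200 bp. In the highest bin they were 89.30% and 88.34% with reciprocal overlap, 78.75% and 77.12% by centres and 68.45% and 65.94% at 8-fold. In the lowest bin they were 22.94% and 25.06% by centres and 15.01% and 12.90% at 8-fold, so the highest bin exceeded the lowest in each.

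IL-1β-only and control-only peaks at p65 (39.5% and 10.3%) became 41.97% and 12.16% when peaks within 500 bp counted, 50% and 21.93% at 8-fold, and 27.17% and 0 with reciprocal overlap. The IL-1β-only and control-only shares were 25.21% and 10.26% by centres, and 35.89% and 9.78% in windows of 200 bp. Control-only peaks in the wild-type control list were 0 with reciprocal overlap, 69.39% by centres and 93.17% at 8-fold, and IL-1β-only peaks in the wild-type IL-1β list 67.40%, 63.21% and 89.30%. Both values of 0 follow from construction, since windows of the control list cannot overlap the narrower wild-type and p65 windows by 50% reciprocally. At 8-fold 738 genes had peaks in both conditions, 612 in control only and 780 with IL-1β only, which turns the order of the last pair (995 and 928 in the main counts). Of 48 counts in gene lists, 37 were within 1.5 times at 10 kb and 43 at 100 kb.

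No paired analysis was possible because the lists carry no value per replicate, and leaving out a replicate was not run for the same reason. The lists give no values for sites under the thresholds, so the tag count of a peak that is missing from 1 list is unknown here.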

Other observations

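The genes with the most peaks were long ones. Ntm, a neuronal adhesion gene of 968.5 kb, had 16 control and 14 IL-1β peaks, of which 10 were shared, and Robo2, an axon guidance receptor gene of 1555 kb, had 13 and 14 with 5 shared. Auts2, Tenm4, Dlg2 and Pde4d, between 739.9 and 1973 kb long, had 10 to 12 in each list.

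By chromosome, the share of control peaks found with IL-1β ran from 53.5% on chromosome 2 to 64.3% on chromosome 5. The share of IL-1β peaks found in control ran from 56.2% on chromosome 18 to 65.3% on chromosome X.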
